A study of Mus musculus with 6 samples.

Results

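The interleukin-12 (IL-12) cytokine family was followed in the RNA of mouse bone marrow-derived macrophages (BMDMs) at the level of its 5 subunit genes, Il12a, Il12b, Il23a, Il27 and Ebi3, out of 54446 genes counted. The genes were chosen by name, and each was found once among the gene identifiers. BMDMs were grown from the bone marrow of male BALB/c mice aged 6 to 8 weeks in medium with 20% L929-conditioned medium for 7 days. For the next 24 hours they stayed unpolarized (M0), received LPS at 50 ng/mL together with IFN-γ at 20 ng/mL (M1), or received 20 ng/mL of IL4 (M2). Each state was prepared as a control, treated with DMSO, and with regorafenib at 1 µM, an oral inhibitor of several kinases, added 1 hour before polarization. No transgene or engineered allele is named for these mice, and how many mice gave the cells of a library is not given in the sources used here. Each of the 6 conditions was sequenced as 1 library, so a difference between a regorafenib library and its control had no replicate check, and the 95% intervals given with it cover counting error only.

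The members of this family are secreted as heterodimers of a helical chain and a receptor-like chain. Il12a encodes the helical p35 chain and Il12b the receptor-like p40 chain of IL-12, Il23a the p19 chain that joins p40 in IL-23, Il27 the p28 chain that joins the product of Ebi3 in IL-27, and p35 with Ebi3 makes IL-35. Il12b, Ebi3 and Il12a are therefore each used in more than 1 cytokine, and Il23a and Il27 are specific to IL-23 and IL-27. Macrophages and dendritic cells make IL-12 after microbial signals, and IL-12 is known for driving IFN-γ production by T cells and NK cells, while IL-23 is known for maintaining IL-17-producing T cells and IL-27 for both promoting and restraining T cell responses.

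The libraries held between 25359309 and 34898342 counts, and the text gives levels as CPM, the count per 1000000 counts of the library after TMM scaling. At these depths 3 counts, taken as the floor of detection, corresponded to between 0.0822 and 0.124 CPM. The labels of the states were checked with Nos2, Mrc1 and Arg1. Nos2 had 39 to 50 counts in M0 and M2, and 410649 (control) and 221627 (regorafenib) counts in M1. Mrc1 had 24237 and 12895 counts in M2 against 614 and 805 in M0. Arg1, a marker of M2 in the paper, was less specific. It had 21798 and 1017 counts in the M2 pair, but also 851 and 114 in the M1 pair, against 3 and 2 in M0. The macrophage markers Adgre1 and Lyz2 had at least 19492 and 480906 counts in every library. All 7 markers of T and NK cells were under that floor, with 1 count in all, of Klrb1c in the M1 control.

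The proximal promoters of the genes for the IL-12 heterodimer, which differed in the same direction in every comparison of M1 below, and of Ebi3, which had the smallest ratio of regorafenib to control in M1, are shown for comparison. Each run is the RefSeq window from 250 bases before to 50 bases after the annotated transcription start (GRCm38.p6, plus strand, reference strain rather than BALB/c), and capitals mark every match of the motifs searched on both strands.
Il12b, chr11:44399813-44400112: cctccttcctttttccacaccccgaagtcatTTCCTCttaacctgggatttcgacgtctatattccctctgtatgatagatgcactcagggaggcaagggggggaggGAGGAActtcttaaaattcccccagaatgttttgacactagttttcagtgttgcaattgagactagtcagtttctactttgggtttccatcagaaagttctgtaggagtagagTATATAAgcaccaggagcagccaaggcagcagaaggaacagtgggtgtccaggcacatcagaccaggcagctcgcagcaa
Ebi3, chr17:55952373-55952672: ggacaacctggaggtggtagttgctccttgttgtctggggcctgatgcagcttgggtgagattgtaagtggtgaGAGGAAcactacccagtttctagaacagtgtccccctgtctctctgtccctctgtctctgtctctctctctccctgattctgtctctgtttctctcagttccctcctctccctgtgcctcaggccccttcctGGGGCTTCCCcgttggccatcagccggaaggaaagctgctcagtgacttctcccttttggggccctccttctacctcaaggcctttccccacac
Il12a, chr3:68690394-68690693: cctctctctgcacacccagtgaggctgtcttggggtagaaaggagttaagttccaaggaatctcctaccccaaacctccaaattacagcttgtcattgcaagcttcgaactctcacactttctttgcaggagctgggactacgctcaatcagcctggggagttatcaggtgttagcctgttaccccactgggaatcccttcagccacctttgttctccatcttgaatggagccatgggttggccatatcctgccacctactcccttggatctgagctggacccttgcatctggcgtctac
The motifs were the TATA box (TATANAA), AP-1 (TGANTCA), the CRE core (TGACG), C/EBP (TTNNGNAA), PU.1/ETS (GAGGAA), an IRF element (the letters GAAA repeated with 2 bases of any kind between them) and the NF-kB consensus. Il12b held a TATA box that begins at -30 from the start, a motif found in 11.3% of the 32851 mouse windows, and PU.1/ETS words at -143 on the plus strand and at -219 on the minus strand. Ebi3 held an NF-kB consensus match at -44, as did 4.51% of the windows, and a PU.1/ETS word at -176, as did 28.3%. The Il12a window had no match to any of these, which says only that these letters are absent from it. The same holds for each motif without a match in the Il12b and Ebi3 windows. RefSeq gives Il12a an additional start, at 68691424, whose window also had no match. Of all windows, 7.81% held AP-1, 20.8% the CRE core, 40.7% C/EBP and 3.44% the IRF element. Windows for Il23a and Il27 were not analysed here.

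Polarization to M1 separated the family from the other states, and its members differed in how they behaved outside M1. Il12a, Il12b and Il23a were at 3 or fewer counts in all 4 libraries of M0 and M2. Il27 was at 7 to 11 counts there, and Ebi3 was the only member with a clear level in every library, between 517 and 1242 counts outside M1. In M1, Il12b, Il12a, Ebi3 and Il27 reached 1269 to 10147 counts in the control, and Il23a reached 7.

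**Figure D1:**
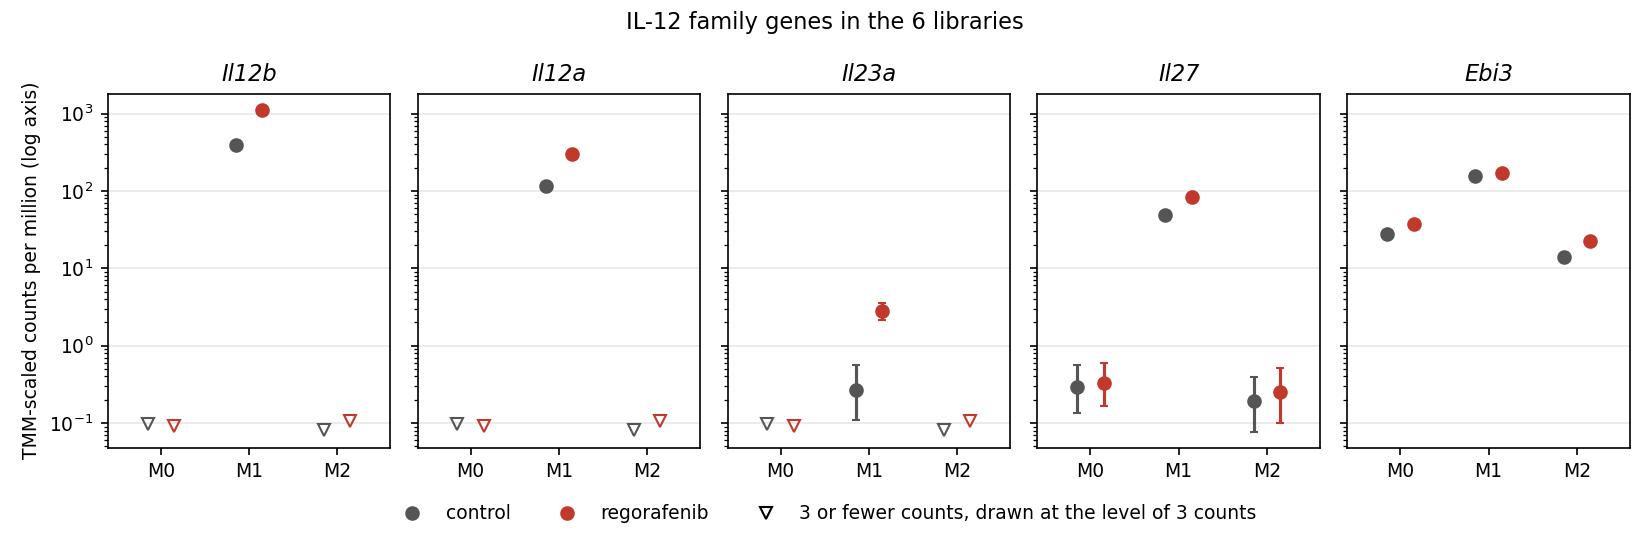
Level of each IL-12 family gene in the 6 libraries, as TMM-scaled CPM on a log axis, with control in grey and regorafenib in red. Bars are exact Poisson 95% intervals of the count, and open triangles stand for 3 or fewer counts. Il12b, Il12a and Il23a are above the triangles only in M1, and Ebi3 is above 14 CPM in every library.

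Il12b (chr11:44400063-44414033 on GRCm38, plus strand, ENSMUSG00000004296.14), the p40 chain shared by IL-12 and IL-23, was the most abundant member in M1. It had 3 counts in M0 control, 3 in M0 regorafenib, 10147 in M1 control, 26829 in M1 regorafenib, 2 in M2 control and 1 in M2 regorafenib. The M1 libraries were thus high, at 393 CPM without and 1113 CPM with regorafenib, and the other 4 stood at the floor. The ratio of regorafenib to control in M1 was 2.83-fold, or 1.50 on the log2 scale (interval 1.47 to 1.54), and 89 of the 13440 genes with at least 10 counts in either library had a higher ratio. No ratio of regorafenib to control is given for M0 and M2, where both libraries were at or under the floor. Between states, the ratio of M1 to M0 in control was 4021 (counting interval 1376 to 19503), resting on 3 counts in M0.

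Il12a (chr3:68690644-68698547, plus strand, ENSMUSG00000027776.12), the p35 chain of IL-12, had the same shape at a lower level. Its counts were 0 in M0 control, 1 in M0 regorafenib, 3024 in M1 control, 7248 in M1 regorafenib, 1 in M2 control and 0 in M2 regorafenib. In M1 its level was 117 CPM in control and 301 CPM with regorafenib, which is 2.57-fold or 1.36 on the log2 scale (1.30 to 1.42), and 115 genes had a higher ratio. The M1 control was at least 1198-fold higher than M0 control, taken against a floor of 3 counts in that library. Both chains of IL-12 were therefore higher in the M1 library with regorafenib, and the counting intervals of their log2 ratios did not overlap.

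Il23a (chr10:128296139-128298752, minus strand, ENSMUSG00000025383.2), the p19 chain of IL-23, was the rarest member in M1. It had 0 counts in both M0 libraries, 7 in M1 control, 67 in M1 regorafenib, 1 in M2 control and 0 in M2 regorafenib. Its level in M1 was 0.271 CPM in control (exact Poisson interval 0.109 to 0.558) and 2.78 CPM with regorafenib (2.15 to 3.53), and the 2 intervals did not overlap. The ratio was 10.3-fold, or 3.36 on the log2 scale, with a wide interval of 2.24 to 4.73, and 3 of the 13440 genes had a higher ratio. The gene was counted among the 13440 only through its regorafenib library. With 1 CPM added to both values, an alternative that damps low genes, the log2 ratio of Il23a was 1.57.

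Il27 (chr7:126589010-126594941, minus strand, ENSMUSG00000044701.5), the p28 chain of IL-27, had 9 and 11 counts in M0 control and regorafenib, 1269 and 2018 in M1, and 7 in each M2 library. In M1 regorafenib it was 1.70-fold higher than in control, at 83.7 against 49.1 CPM, or 0.77 on the log2 scale (0.67 to 0.87), and 422 genes had a higher ratio. In M0 its log2 ratio was 0.19 (-1.22 to 1.64) and in M2 0.38 (-1.36 to 2.12), so neither direction could be told at this depth. M1 was 168-fold above M0 in control, with a counting interval of 88.0 to 367, as the ratio rests on 9 counts in M0. On the log2 scale this is 7.39, and 5.28 with 1 CPM added to both values. On the annotation, Il27 overlaps Apobr, a lipoprotein receptor gene on the opposite strand, with 103 bases shared by the gene bodies. Apobr had 3466 to 6142 counts, and as the strand setting of the counting is not stated, reads in the shared bases cannot be assigned with certainty.

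Ebi3 (chr17:55952640-55957022, plus strand, ENSMUSG00000003206.7), the receptor-like chain of IL-27 and IL-35, was present in all states. The M0 pair had 842 counts in control and 1242 with regorafenib, the M1 pair 4030 and 4160, and the M2 pair 517 and 640. Regorafenib libraries were higher in each state. The log2 ratio was 0.46 (0.33 to 0.59) for the M0 pair, 0.15 (0.08 to 0.21) for the M1 pair and 0.69 (0.52 to 0.86) for the M2 pair. The ratio was smallest in M1, and the difference between states was not tested because each ratio rests on 1 library a side. M1 was 5.69-fold above M0 in control and 4.58-fold above it with regorafenib. Ebi3 also had the only difference between M2 and M0 with more than 11 counts behind it, with M2 lower by 0.95 on the log2 scale in control (interval of the log2 ratio -1.11 to -0.79) and by 0.72 with regorafenib (-0.86 to -0.58). The antisense gene Gm16712 overlaps Ebi3 and had 4 to 17 counts.

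The same response was then counted across the family. A gene was called in a pair of libraries when it differed at least 2-fold and had at least 10 counts in either. In M1, 3 of 5 members (Il12a, Il12b and Il23a) were called higher with regorafenib and 0 lower, beside 1.76% of all tested genes called higher and 3.46% called lower. Il23a reached the 10 counts only in the library where it was high, so its call is given only as a description. Il12a and Il12b were far above the minimum in both libraries. The median log2 ratio of the 5 members in M1 was 1.36, and that of all tested genes was -0.02. The summed level of the 5 genes in M1 was 715 CPM in control and 1673 CPM with regorafenib. In M0 and M2 no member was called, but only Il27 and Ebi3 were tested in M0 and only Ebi3 in M2. As background, 9.47% of tested genes were called higher and 10.9% lower in M0. The M2 pair had 6.15% of genes higher and 5.07% lower. These values come from whole cultures, where more cells making a transcript and more of it per cell cannot be told apart.

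**Figure D2:**
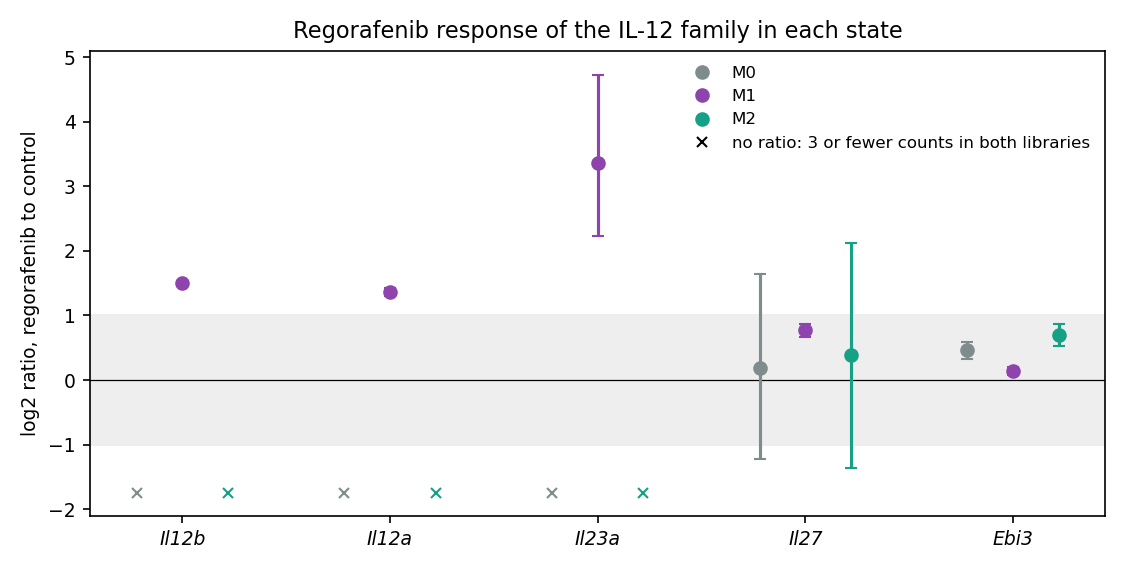
Log2 ratio of regorafenib to control for each IL-12 family gene in M0, M1 and M2, with 95% counting intervals. The shaded band marks less than 2-fold, and crosses mark pairs with 3 or fewer counts in both libraries. In M1 Il12b, Il12a and Il23a lie above the band, Il27 lies inside it at 0.77 and Ebi3 is near 0.

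A test with more than 1 library a side was possible only across states. edgeR's quasi-likelihood test fitted state and treatment on all 6 libraries and tested 14110 genes. Il23a was not kept by its expression filter. With 1 library per condition, the residual of this fit is how far the states differ in their response to the drug, not a spread between replicates. For the regorafenib effect common to the 3 states, 0 of the 14110 genes and 0 of the 4 tested members passed an adjusted p of 0.05, although 1637 genes had an unadjusted p under 0.05 and DESeq2 called 301 genes, no member among them. The fitted log2 changes of the members were 1.32 for Il12a (adjusted p = 0.326, edgeR), 1.28 for Il12b (adjusted p = 0.330), 0.60 for Il27 (adjusted p = 0.420) and 0.44 for Ebi3 (adjusted p = 0.409). All 4 were among the 1637 of 14110 genes with an unadjusted p under 0.05. For Il12a, Il12b and Il27 these values rest on the M1 pair. These genes could pass the expression filter only through M1, so that their p-values are given only as a description. On leaving out 1 M1 library, whether control or regorafenib, the fitted change was 0.12 for Il12a, -0.24 for Il12b and 0.28 for Il27. These fits rest on few counts in M0 and M2, 3 or fewer per library for Il12a and Il12b and 7 to 11 for Il27. The response of these genes outside M1 cannot be told from them.

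Members were also compared between M1 and M0. In M1 against M0 over both treatments, Ebi3, with at least 517 counts in every library, rose by 2.42 on the log2 scale (adjusted p = 0.000902, edgeR), beside 18.5% of all tested genes higher and 18.2% lower (36.7% in all). Il12a and Il12b, at 3 or fewer counts outside M1, and Il27, at 7 to 11, could pass the expression filter only through M1, so that their place among the genes called higher is given only as a description, without a p. Each of the 4 was higher in both M1 libraries than in both M0 libraries. No fitted change is given for Il12a and Il12b because it depends on the small value added to counts near 0, and that of Il27 was 7.74. Taken pair by pair, 4 of 5 members were called higher in control, beside 17.4% of genes higher and 19.7% lower. With regorafenib 5 of 5 were called higher, beside 16.3% of genes higher and 21.6% lower. Il12a, Il12b and Il23a could pass the count minimum only through M1, as could Il27 in control, where M0 had 9 counts, so that these calls too are only a description. Il23a made the difference between the pairs, with 7 counts in the M1 control and an at least 30.5-fold higher level in M1 than in M0 with regorafenib. Scaling by total counts lowered the log2 ratios of M1 to M0 by 0.44 in control and 0.41 with regorafenib at the median of all genes, and Ebi3 was then higher by 2.07 and 1.78 on the log2 scale.

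In M2 against M0, 28 genes (0.198%) passed, 0.184% of genes higher and 0.0142% lower, and no member was among them by edgeR. The 1 member with an unadjusted p under 0.05 was Ebi3, with a fitted log2 change of -0.82 (adjusted p = 0.211). DESeq2 called Ebi3 lower in M2 with an adjusted p = 0.0392, among 416 genes called. Taken pair by pair, 0 of 5 members were called in either direction, though only Ebi3 in control, and Ebi3 and Il27 with regorafenib, had the 10 counts required, beside 4.69% of genes higher and 7.61% lower in control and 4.41% and 5.18% with regorafenib.

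To compare members with each other, CPM were divided by the length of each gene's annotated exons in kilobases. In M1 control the order was Il12b (200 CPM per kilobase), Ebi3 (135), Il12a (68.8), Il27 (48.1) and Il23a (0.121). In M1 regorafenib Il12a passed Ebi3, and the order became Il12b (566 CPM per kilobase), Il12a (177), Ebi3 (150), Il27 (82.0) and Il23a (1.24). In both libraries neighbors in the order were further apart than their counting intervals. In M0 and M2 Ebi3 came first (12.3 to 32.6 CPM per kilobase) and Il27 next (0.188 to 0.327), and the order of the other 3 could not be told at the floor.

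Because the chains act in pairs, the ratio of partner RNAs per kilobase was taken within each library. For IL-12, Il12b exceeded Il12a 2.90-fold in M1 control (2.79 to 3.02) and 3.20-fold with regorafenib (3.12 to 3.29). Its counting intervals did not overlap, and the difference was the smallest of the 4 pairs. For IL-23, Il12b exceeded Il23a 1656-fold in control (803 to 4120) and 457-fold with regorafenib (360 to 590), so that p19 RNA stayed far below p40 RNA in both. For IL-27, the ratio of Ebi3 to Il27 was 2.81 in control (2.64 to 2.995) and 1.82 with regorafenib (1.73 to 1.92). Outside M1 the same ratio was 65.3 to 99.9, since Ebi3 was present there and Il27 was at 7 to 11 counts. For IL-35, the ratio of Ebi3 to Il12a was 1.96 in control (1.87 to 2.06) and 0.846 with regorafenib (0.814 to 0.879), so that the chain with the higher RNA level was Ebi3 in control and Il12a with regorafenib. With coding length in place of exon length, Il12b to Il23a was 848 in control and 234 with regorafenib, and Ebi3 to Il12a was 1.38 in control and 0.594 with regorafenib. These are ratios of RNA, and no protein was measured here.

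**Figure D3:**
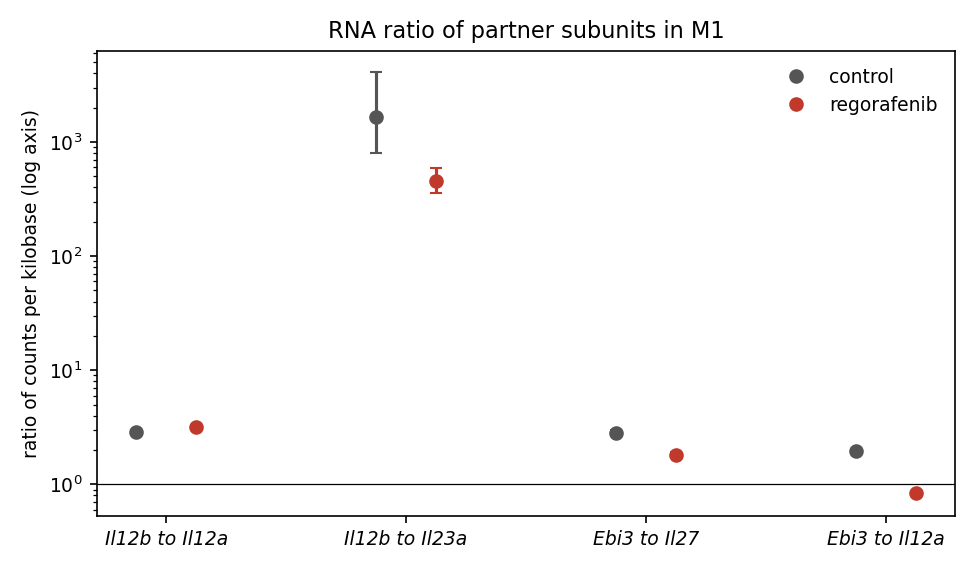
Ratio of counts per kilobase of exon between partner chains in the M1 libraries, on a log axis, with 95% counting intervals. Il12b to Il12a is near 3 in both, Il12b to Il23a is 1656 and 457, Ebi3 to Il27 is 2.81 and 1.82, and Ebi3 to Il12a lies on either side of the line of equal level.

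The other genes of the pathway were described from lists of general knowledge. None of the 5 receptor genes was called in M1 with regorafenib (median log2 ratio -0.11), and with 1.76% of all genes called higher and 3.46% lower this is near the background. In M0 and M2 0 of the 4 tested were called, beside 9.47% of all genes higher and 10.9% lower in M0 and 6.15% and 5.07% in M2. Il12rb2, the signaling chain of the IL-12 receptor, had 25 counts in M1 control and 45 with regorafenib (0.95 on the log2 scale, 0.21 to 1.72). Il23r, the specific chain of the IL-23 receptor, had 0 counts in all M0 and M2 libraries and 189 and 116 counts in M1 (regorafenib to control -0.60, -0.95 to -0.26). With M1 polarization, 1 of 5 receptor genes was higher and 2 were lower, beside 18.5% and 18.2% of all genes. The 1 called higher was Il23r, which could pass the expression filter only through M1, so that its call is given only as a description. By edgeR, Il12rb2, at 908 and 656 counts in M0, fell by 4.10 on the log2 scale (adjusted p = 0.00163), and Il6st, the gp130 chain used by IL-27, fell by 1.23 (adjusted p = 0.00372). Il27ra, the other IL-27 receptor chain, was lowest in M1, with 7 counts in control and 13 with regorafenib. It had 27 and 28 counts in the M0 pair and 142 and 186 in the M2 pair.

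Of 8 signal transducers, 0 were called in M1 with regorafenib (median 0.04), which is near the background of 1.76% and 3.46%. In M0 3 of the 8 were called lower and 0 higher, beside 10.9% and 9.47% of all genes, and the median of the 8 was 0.43. Among them were Socs1, an inhibitor of cytokine signaling, at 63 counts in control and 21 with regorafenib, and Stat4, at 29 and 4, which reached the 10 counts only in control. In M2 0 of the 7 tested were called, beside 6.15% of all genes higher and 5.07% lower. In M1 against M0, 6 of them were higher by edgeR, beside 18.5% of all genes. Tyk2, a kinase bound to the IL-12 and IL-23 receptors, was at 3148 and 4635 counts in M1 control and regorafenib (log2 ratio 0.66, 0.59 to 0.72). Stat4, the transcription factor activated by IL-12, was low in M1, at 20 and 36 counts. Stat3, activated by IL-23 and IL-27, was at 12545 and 8661 counts in M1 (log2 ratio -0.43, -0.47 to -0.39).

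Of 9 known activators of the member genes, 0 were called in M1 with regorafenib (median -0.03), again near the background of 1.76% higher and 3.46% lower. In M0 0 were called (median 0.35), beside 9.47% of all genes higher and 10.9% lower, and in M2 2 were called higher and 0 lower, beside 6.15% and 5.07% of all genes (median 0.24). These were Irf1, at 1091 counts in M2 control and 2605 with regorafenib, and Nfkbiz, at 88 and 149. In the M1 pair Nfkb1, an NF-kB subunit, was at 9913 and 12719 counts (log2 ratio 0.46, 0.42 to 0.50). In the same pair Irf1, which acts downstream of IFN-γ, was at 15489 and 12483 counts (log2 ratio -0.21, -0.25 to -0.18), and Irf8, an IFN-γ-induced regulator of Il12b, at 4800 and 4339 (-0.05, -0.10 to 0.01). Compared with M0, 6 of the 9 were higher in M1 by edgeR, beside 18.5% of all genes, among them Irf1 (3.78 on the log2 scale, adjusted p = 0.00271) and Nfkbiz, which encodes the NF-kB cofactor IκBζ (4.13, adjusted p = 0.000892).

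Of 5 repressors of the member genes, 1 was called lower and 0 higher in M1 with regorafenib, beside 3.46% and 1.76% of all genes (median log2 ratio -0.31, against -0.02 for all genes). In M0 1 was called lower and 0 higher (median 0.30, background 10.9% and 9.47%), and in M2 1 was called lower and 1, Bcl3, higher (median -0.23, background 5.07% and 6.15%). The gene called lower in each state was Il10, the cytokine best known for restraining IL-12 production by macrophages. Il10 had 24 counts in M0 control and 4 in M0 regorafenib, 497 and 96 in the M1 pair, and 67 and 11 in the M2 pair. Its regorafenib library was the lower in all 3 states, with log2 ratios of -2.69 in M0, where it reached the 10 counts only in control, -2.27 in M1 and -2.22 in M2. In M1 29 of the 13440 tested genes had a lower ratio than Il10. Over the 3 states its fitted change was -2.31, with an adjusted p = 0.263 by edgeR. The other 4 repressors, Maf, Nfil3, Atf3 and Bcl3, had log2 ratios between -0.36 and -0.28 in M1, all within 2-fold. In M1 against M0, 4 of the 5 were higher and Maf lower by edgeR, beside 18.5% and 18.2% of all genes, with Il10 higher by 4.78 on the log2 scale (adjusted p = 0.000644).

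**Figure D4:**
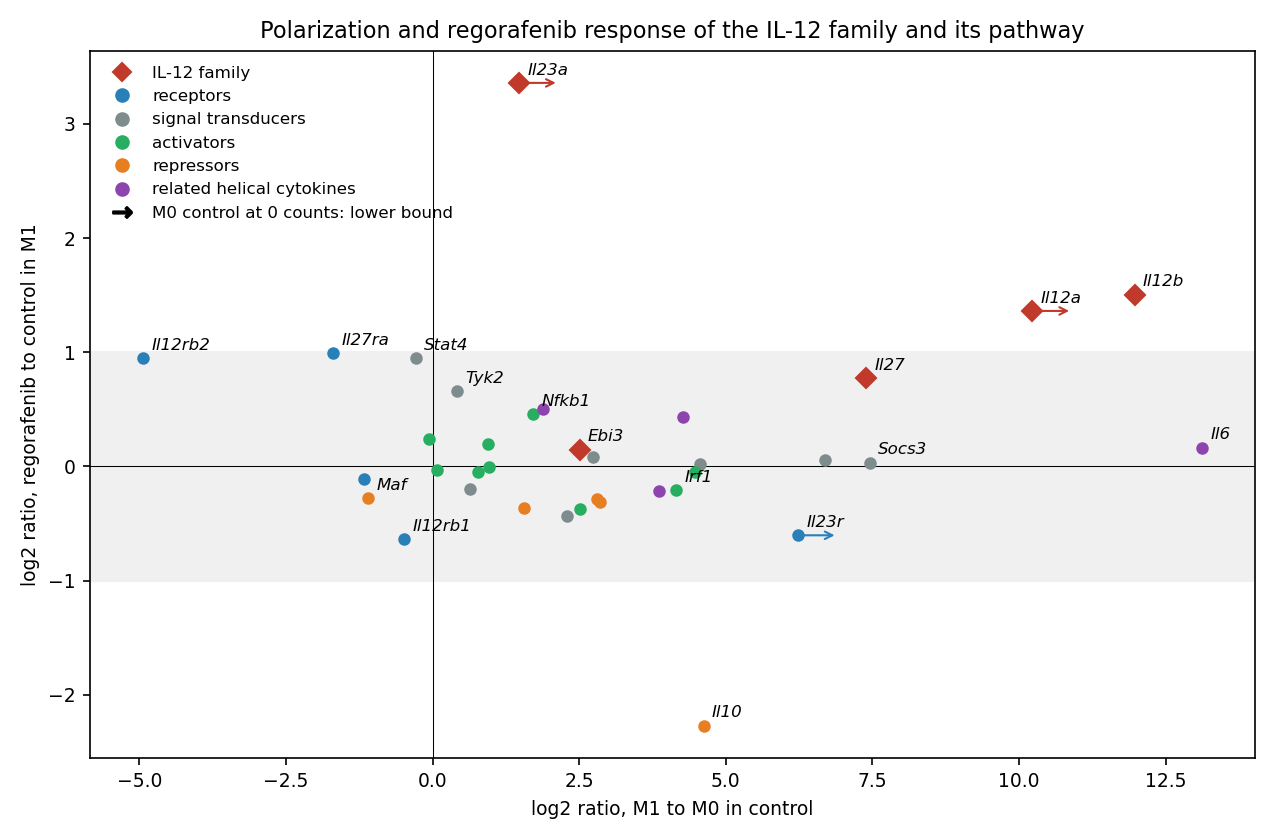
Log2 ratio of regorafenib to control in M1 (vertical axis) against log2 ratio of M1 to M0 in control (horizontal axis) for the IL-12 family and its receptors, signal transducers, activators, repressors and related cytokines. Both axes use the M1 control library, arrows mark lower bounds, and the shaded band marks less than 2-fold with regorafenib. Il12a, Il12b and Il23a lie above the band and Il10 below it, and the other genes shown are inside.

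Of the related helical cytokines, 0 of 4 tested were called in M1 with regorafenib (median log2 ratio 0.30, against -0.02 for all genes), near the background of 1.76% higher and 3.46% lower. In M0 2 of 5 tested were called higher and 1 lower (median -0.34), beside 9.47% and 10.9% of all genes. Those higher were Il6, at 5 counts in control and 12 with regorafenib, and Ctf1, at 5 and 13. The one lower was Lif, at 11 and 0. Each had 13 or fewer counts in both libraries and reached the count minimum only through the library where it was high. These calls are therefore only a description, and the log2 intervals of Il6 and Ctf1 were not above 0. In M2 3 of 5 tested were called lower and 0 higher (median -1.16), beside 5.07% and 6.15%. These were Osm, at 316 counts in control and 108 with regorafenib, and Il6 and Lif, each at 14 or fewer counts in both and tested only through the control library. Il6, which had more counts in M1 than Il12b, was at 37404 counts in M1 control and 39074 in M1 regorafenib (log2 ratio 0.16, 0.14 to 0.18), while Il12b was at 1.50 in the same pair. Of the genes around IFN-γ, the cytokine that IL-12 induces, 0 of 5 tested were called in M1 (median 0.00), near the same background, and in M0 and M2 1 of 5 tested was called higher and 0 lower, beside 9.47% of all genes higher and 10.9% lower in M0 and 6.15% and 5.07% in M2. That gene was Ifngr1, a chain of the IFN-γ receptor, at 1634 and 3697 counts in the M0 pair and 1647 and 2574 in the M2 pair. Ifng itself had 0 counts in 5 libraries and 1 in M2 control, so that no Ifng transcript was detectable in M1 at this depth.

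The genes with the most similar profile over the 6 libraries were listed by Euclidean distance of log2(CPM + 0.1), among 14917 genes. The 6 points share the polarization contrast, so that these lists mainly collect genes with a like step into M1. Il12a was closest to Ccl5 (0.95) and Inhba (0.95), a chemokine and an activin subunit, and Il12b was at rank 4 (1.54). Il12b was closest to Lcn2 (0.96), Il6 (1.28) and Cxcl3 (1.37). Il23a was closest to Ikzf4 (0.50), an Ikaros family transcription factor with 0 counts outside M1, 6 in M1 control and 85 in M1 regorafenib, followed by Ccr4 (1.19), with 3 and 26 counts. The closest genes to Il27 were Shisa3 (0.50), Vnn3 (0.61), Ptges (0.68) and Socs3 (0.78). Ebi3, the member with a level in every state, was closest to Ppp1r12b (0.39) and Tnip1 (0.42), an inhibitor of NF-kB signaling.

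Markers of dendritic cells, the other main source of IL-12, were examined beside these results. Over the 7 markers the summed level was 0.586 CPM in M0 control, 0.516 in M0 regorafenib, 32.1 in M1 control, 39.0 in M1 regorafenib, 0.876 in M2 control and 2.79 in M2 regorafenib. Most of the M1 sum was Ccr7, at 780 and 827 counts, a chemokine receptor that activated macrophages can also express. Xcr1, a marker of cross-presenting dendritic cells, had 36 counts in M1 control and 102 with regorafenib (log2 ratio 1.60, 1.04 to 2.19), in the same direction as Il12a and Il12b. Of the defining markers, Clec9a and Cd209a had 0 counts in both M1 libraries, Flt3 had 3 and 2, and Zbtb46 had 9 and 5. In M2 Zbtb46 had 15 counts in control and 59 with regorafenib. The part of these cells in the values of the members was not tested. Among 6 markers of neutrophils and their precursors, S100a8 had 1804 counts in M1 control and 489 with regorafenib (log2 ratio -1.78, -1.93 to -1.64), against the direction of the IL-12 chains. Mpo, the other marker tested there and with S100a8 nearly all of the summed level, had 2144 and 2064 counts (log2 ratio 0.05, -0.04 to 0.13), and Ly6g had 0 counts in every library. In the other states the 6 markers summed to 84.8 CPM in M0 control and 158 CPM with regorafenib, and to 89.0 and 133 CPM in M2. Nearly all of these sums was Mpo, at 2479 and 5124 counts in the M0 pair (log2 ratio 0.95) and 3175 and 3646 in the M2 pair (0.58), in the same direction as Ebi3. S100a8 went the other way, with 123 and 91 counts in M0 (-0.54) and 68 and 39 in M2 (-0.42, interval -1.02 to 0.17). In M0 0 of 2 tested were called, beside 9.47% of all genes higher and 10.9% lower. In M2 2 of 4 tested were called higher, beside 6.15% higher and 5.07% lower, but S100a9 (0 and 11 counts) and Cxcr2 (6 and 18 counts) reached the 10 counts only through the regorafenib library, so that these calls are only a description. The 4 fibroblast markers summed to 4.99 CPM in M1 control and 5.06 CPM with regorafenib. In M0 and M2, where the Ebi3 ratio was larger, they summed to 3.06 and 9.92 CPM in M0 and to 3.48 and 5.61 CPM in M2, also in the same direction as Ebi3. The part of neutrophils, their precursors and fibroblasts in the Ebi3 values was not tested. Each of the 4 B cell markers had 4 or fewer counts in every library.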

How the data were processed

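RNA-seq counts per gene were deposited by the authors for 6 libraries. By their methods and processing notes, TruSeq Stranded mRNA libraries were read from both ends. FastQC was used for quality control and cutadapt 2.4 for adaptors. STAR 2.7.2a aligned the reads to GRCm38 and counted them on the gene models of Gencode M19. The counts are whole numbers with no normalization, and the strand column taken is not given in the sources used here. Genes were named from Gencode M21. Of 54446 identifiers, 53229 matched exactly, 1180 without their version and 37 not at all. No member shared a 100-base word with another gene.

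Counts were scaled with TMM (edgeR 4.0.16, R 4.3.3). Ratios of 2 libraries have conditional exact binomial 95% intervals, and levels exact Poisson ones. A library with 3 or fewer counts was at the floor. Genes with at least 10 counts in either library and a 2-fold difference were called. edgeR's quasi-likelihood test (state and treatment, 6 libraries, filterByExpr, Benjamini-Hochberg) was the test across genes. With 1 library per condition, its residual is the difference of the states in their response to regorafenib, not a spread between replicates. Nothing says that cultures were separate, so its p-values describe these samples only. DESeq2 1.42.0, other scalings, filters and leaving out each library were alternatives. NOISeq, which the authors used without replicates, was not used because it rests on simulated replicates. The scripts were tested on simulated data (Python 3.11.15, scipy 1.17.1). Promoter windows came from RefSeq (GRCm38.p6), with 3 of 5 members matched.

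The members, lists and tests were chosen with earlier results of these data known. Named genes are the members, the genes of the lists described, label checks, genes overlapping a member and the 5 nearest profiles of each member.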

Additional observations from a re-analysis of the deposited data

Results flagged for a closer look

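Il6, a related helical cytokine, had a log2 ratio of regorafenib to control of 1.16 in M0 (from 5 to 12 counts) and -1.20 in M2 (from 12 to 4 counts). It was listed because the 2 ratios had opposite signs. In each of these states the exact Poisson intervals of the 2 levels overlapped, so that neither direction could be told at this depth. The difference was not tested, and both ratios rest on 12 counts or fewer.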

How the results depend on the processing

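With a fold of 4, 1 member (Il23a) in place of 3 was called higher with regorafenib in M1, and with total counts as scaling 1 member (Ebi3) in place of 0 was called lower in M2 than in M0 in control. The other counts of called members in each pair were unchanged under total counts, DESeq2 size factors and 1 CPM added. For the regorafenib effect common to the 3 states, the number of genes called was 0, 333 without a filter and 301 with DESeq2. Leaving out a library gave 0 to 814, the higher numbers without M1 control (726) or M1 regorafenib (814), against 2 and 4 without M0 control or M0 regorafenib. For M2 against M0 it was 28, 408 without a filter, 416 with DESeq2, and 77 to 294 on leaving out a library (77 without M2 control, 78 without M2 regorafenib, 99 without M0 control, 248 without M1 control, 264 without M1 regorafenib and 294 without M0 regorafenib). For M1 against M0 it was 5174, and 4118 to 5083 on leaving out a library. A fit without a library leaves 1 library in a state, which its state term fits exactly. The regorafenib effect and the residual then come from the other states only, and the lone library is assumed to vary like the others. The cause of these shifts was not tested. The fit with state and treatment already compares regorafenib with control within each state. No paired analysis was possible because, beyond that term, each group is 1 library and the labels carry no replicate numbers. Depth limits Il12a, Il12b, Il23a and Il27 in M0 and M2, where they had 11 or fewer counts.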
